A study of Mus musculus with 17 samples.

Results

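Glycolysis and hypoxia response genes were followed through 17 microarrays of skeletal stem and progenitor cells of female mice. The set was named by role: 2 glucose transporters, 14 glycolytic enzymes, 4 genes of lactate handling, 3 regulators of glycolytic flux, 4 genes of oxygen sensing and 6 other targets of the hypoxia-inducible factors, 33 in all. Of these, 30 had a probe set that names no other gene, and all 30 passed the filter on low signals, among 14504 genes that passed it. Gpi1 and Eno1 had no probe set naming them alone, and the probe sets of Bnip3l also name Bnip3l-ps, so these 3 genes are not described.

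The mouse skeletal stem cell (mSSC) and the mouse bone cartilage stromal progenitor (mBCSP), its descendant, were sorted by FACS from female C57BL/6 mice, and their RNA was read on Affymetrix mouse genome arrays. The animals were sham operated or ovariectomised (OVX) at 8 weeks of age, and a femur was fractured 6 weeks later, at 14 weeks. Cells came from uninjured bone or, at post-fracture day 7, from the callus, the tissue that bridges a break. The OVX + E2 group was ovariectomised, fractured and given a pellet of 0.18 mg 17β-estradiol that released continuously from the time of surgery. There were 4 arrays of sham callus, 2 of OVX callus, 2 of OVX + E2 callus, 3 of sham uninjured bone and 2 of OVX uninjured bone. A further 2 callus arrays carry conflicting labels, OVX in the title and source but sham with fracture in the treatment field, and 2 more are labelled as fracture with no surgery given. These 4 arrays were used as callus and are named apart wherever surgery is compared. Of the 17 arrays, 9 are of mSSC and 8 of mBCSP. The labels do not say whether arrays came from separate mice or from pooled cells, so p-values measure the spread between these arrays, which may be technical.

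Glycolysis turns glucose into pyruvate in the cytosol and yields ATP without oxygen, and pyruvate can be reduced to lactate and exported. When oxygen is short, prolyl hydroxylases stop marking the α subunits of the hypoxia-inducible factors (HIF) for destruction, and HIF switches on glucose transporters, glycolytic enzymes and a group of other targets. Growing cartilage has few vessels, and chondrocytes are known to rely on HIF-1α and on glycolysis.

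HIF binds a short core motif, so promoter sequence is shown here beside the measurements. The motif was searched as ACGTG and GCGTG, on both strands and with overlapping matches counted, from 250 bases before to 50 bases after each start site in RefSeq (GRCm38.p6). At least 1 match lay in the promoters of 26 of the 29 genes of the set that had a promoter there, or 89.7%, against 46.7% of 27025 genes. Matches numbered 2 or more in 20 of the 29 genes, against 22.9% of all genes. A gene with several promoters was counted by the one with most matches. The set was named in part for HIF targets, so these shares are not a result of the arrays. Of genes later called higher in callus 17 of 19 held a match, as did 7 of 7 that were not called. Bnip3l, Ndrg1, Slc2a3 and Epas1 were not matched to a promoter. A match in letters is a description and not a binding site. The promoters printed are those of Slc2a1, Pgk1, Bnip3 and Adm, whose signals were higher in callus, and of Pfkfb4, whose signal was lower, with the matches in capitals. They lie at chr4:119108495-119108794 (plus strand) with 2 matches for Slc2a1, at chrX:106186850-106187149 (plus strand) with 2 for Pgk1 and at chr7:138909457-138909756 (minus strand) with 5 for Bnip3. Adm lies at chr7:110627407-110627706 (plus strand) with 2 matches, and Pfkfb4 at chr9:108991652-108991951 (plus strand) with 1.
Slc2a1: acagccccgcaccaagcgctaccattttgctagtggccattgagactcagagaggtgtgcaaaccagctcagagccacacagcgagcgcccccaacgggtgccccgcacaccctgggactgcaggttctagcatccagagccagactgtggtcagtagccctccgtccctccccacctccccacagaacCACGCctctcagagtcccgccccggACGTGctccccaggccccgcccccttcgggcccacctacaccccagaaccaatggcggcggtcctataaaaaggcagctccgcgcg
Pgk1: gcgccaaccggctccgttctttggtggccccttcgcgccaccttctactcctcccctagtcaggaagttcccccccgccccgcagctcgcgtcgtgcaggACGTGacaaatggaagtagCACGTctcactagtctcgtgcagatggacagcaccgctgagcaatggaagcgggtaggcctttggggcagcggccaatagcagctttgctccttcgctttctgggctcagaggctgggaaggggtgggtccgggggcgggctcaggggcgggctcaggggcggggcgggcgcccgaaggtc
Bnip3: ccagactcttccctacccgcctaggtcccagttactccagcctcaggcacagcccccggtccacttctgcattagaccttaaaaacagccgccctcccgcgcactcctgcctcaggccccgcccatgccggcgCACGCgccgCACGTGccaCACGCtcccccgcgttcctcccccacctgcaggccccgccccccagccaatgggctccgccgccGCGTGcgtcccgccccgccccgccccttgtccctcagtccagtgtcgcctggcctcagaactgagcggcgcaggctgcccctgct
Adm: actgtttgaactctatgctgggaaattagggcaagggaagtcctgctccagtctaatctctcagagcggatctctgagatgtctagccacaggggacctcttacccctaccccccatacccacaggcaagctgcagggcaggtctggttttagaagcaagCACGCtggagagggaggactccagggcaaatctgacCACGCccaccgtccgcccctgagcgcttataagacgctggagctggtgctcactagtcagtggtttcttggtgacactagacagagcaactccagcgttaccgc
Pfkfb4: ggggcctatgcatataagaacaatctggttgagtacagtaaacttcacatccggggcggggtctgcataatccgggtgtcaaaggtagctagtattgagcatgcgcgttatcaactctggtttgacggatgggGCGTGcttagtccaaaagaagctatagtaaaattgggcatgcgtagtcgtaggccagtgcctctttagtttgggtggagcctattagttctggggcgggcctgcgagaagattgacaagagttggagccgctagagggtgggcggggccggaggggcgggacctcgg

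Array medians lay between 7.66 and 7.88 on the deposited log2 scale. After normalisation, array pairs had Spearman correlations of 0.591 to 0.977 across the 14504 genes that passed the filter. Array titles come in 3 styles: surgery and population (6 arrays, all callus), surgery, injury and population (7 arrays, of which 4 callus) and population and injury (4 arrays, of which 2 callus). The labels do not say that a style marks a batch. Because arrays with different styles stood apart, the style was a term in every fit. The first style holds no uninjured array, so the injury difference rests on 4 callus against 3 uninjured arrays of the second style and 2 against 2 of the last. Ovary surgery was not a term in the injury fit. In the second style 2 of the 3 uninjured arrays are OVX, while the callus is sham or of conflicting surgery. The last style sets sham uninjured bone against callus of unstated surgery. Injury and surgery are therefore partly mixed in this fit.

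The first question was how these genes differ between cells of the day 7 callus and cells of uninjured bone. Of the 30 genes, 19 rose in callus and 2 fell at a limma adjusted p below 0.05, while 22.6% of the 14504 genes rose, 19.8% fell and 42.4% moved either way. The median log2 fold change of the 30 genes was 0.86, against 0.02 over all genes. Of the 30, 23 lay above 0, as did 7445 of the 14504 genes. The set was chosen with earlier results of these data known, so these shares are a description. By role, 9 of 12 glycolytic enzymes, 4 of 5 other HIF targets, 2 of 4 genes of lactate handling and 2 of 4 genes of oxygen sensing rose. Glucose transporters and flux regulators each had 1 gene that rose and 1 that fell. In these sorted but bulk samples, fewer cells of a type and less RNA per cell cannot be told apart. Signals of 6 genes, Slc2a1, Tpi1, Ldha, Hif1a, Egln1 and Adm, lay wholly higher on the 12 callus arrays than on the 5 uninjured arrays, as did 8.45% of all genes. Slc2a3 and Pfkfb4 lay wholly lower, as did 7.03% of all genes, and the other 22 genes overlapped.

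**Figure D1:**
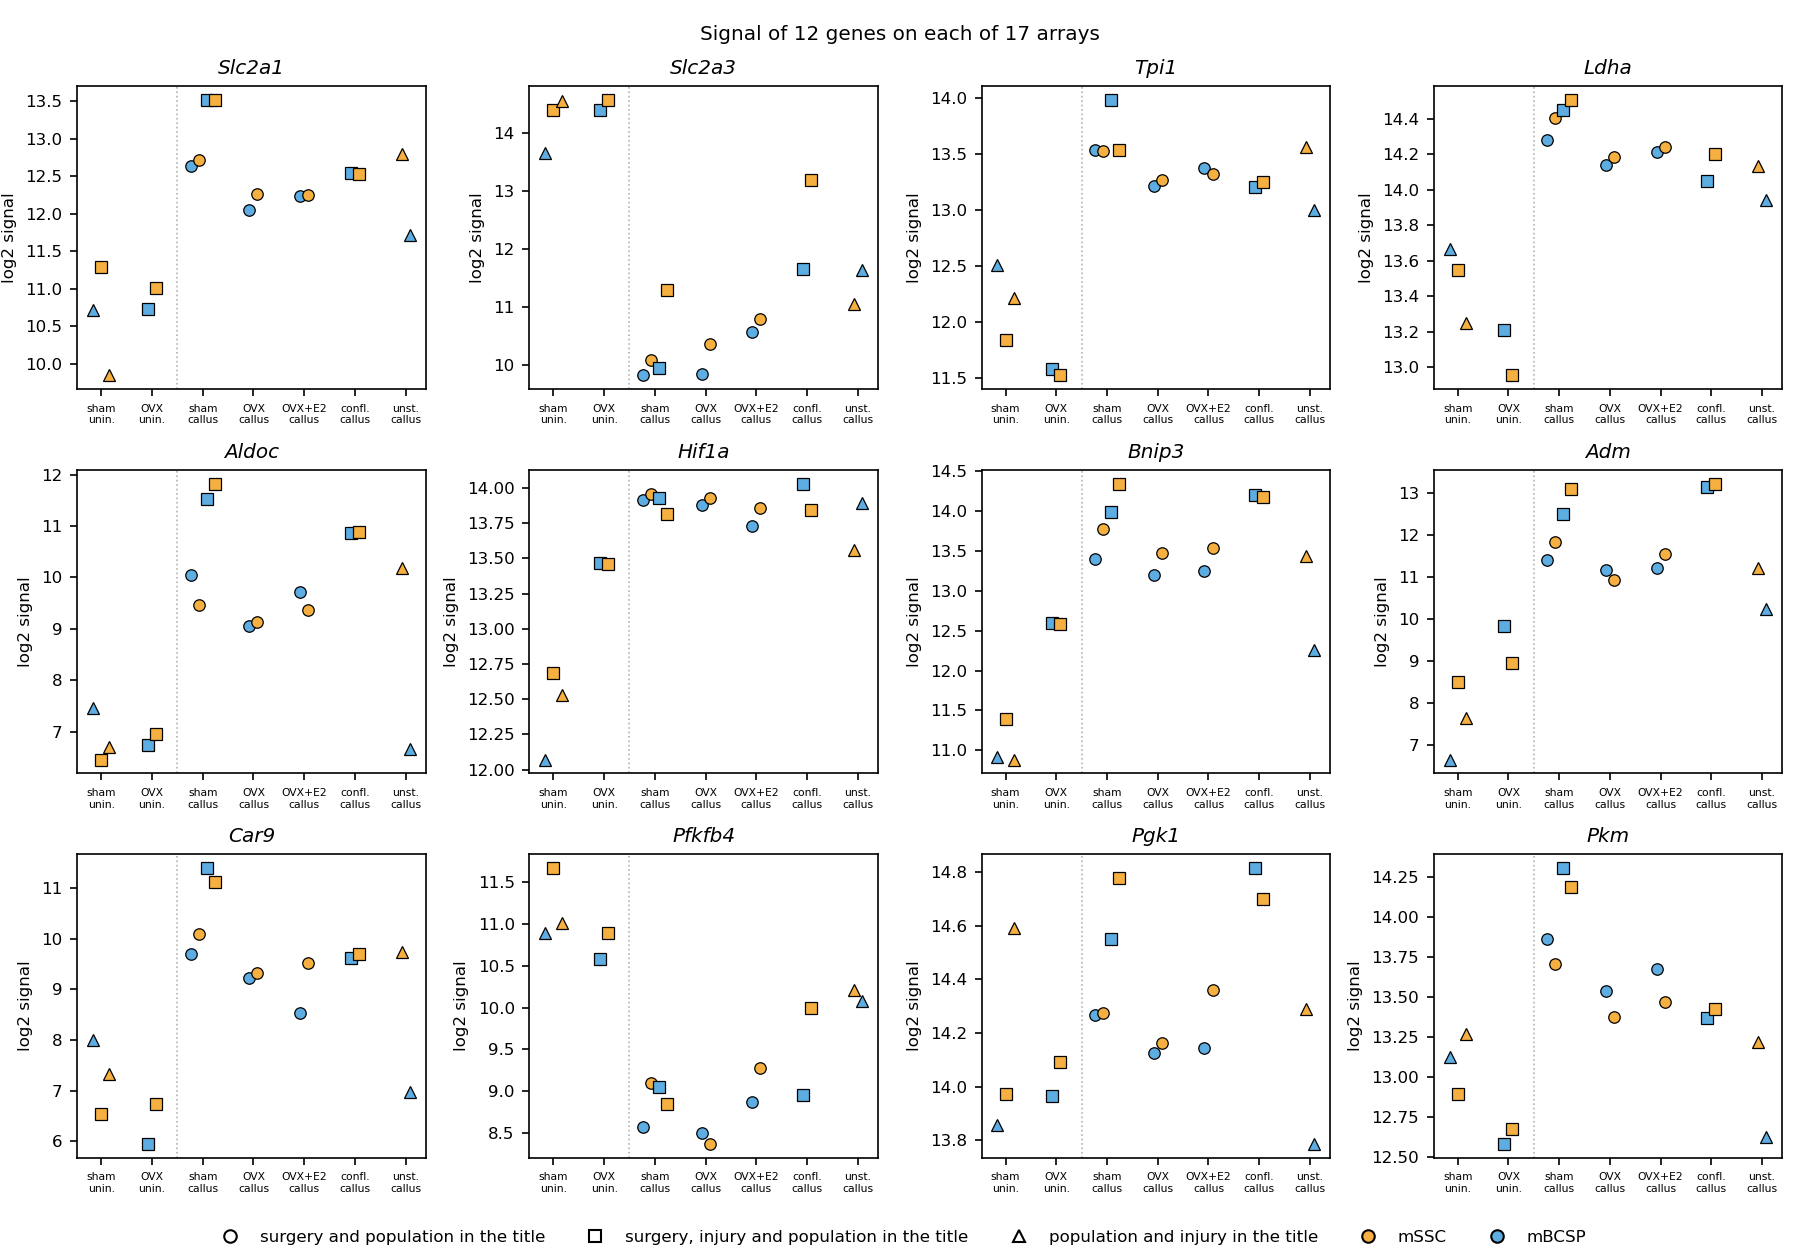
Log2 signal (vertical axes) of 12 genes on each of 17 arrays, by group from left to right (uninjured sham and OVX, then callus of sham, OVX, OVX + E2, conflicting and unstated surgery), coloured by population and shaped by what the array title states. Slc2a1 lies at 11.72 or above on the 12 callus arrays and at 11.29 or below on the 5 uninjured arrays, and Slc2a3 runs the other way.

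Slc2a1 (GLUT1), the widely expressed glucose transporter, had a log2 signal from 11.72 to 13.52 in callus with a median of 12.54. In uninjured bone its signal was 10.71 in sham mBCSP, 11.29 and 9.85 in sham mSSC, 10.72 in OVX mBCSP and 11.01 in OVX mSSC. No callus array was as low as the highest uninjured array, and the arrays of sham callus with surgery, injury and population in the title were highest, at 13.52 in both populations. Slc2a1 rose by 2.02 ± 0.25 (SE) on the log2 scale, or 4.04-fold, with an adjusted p of 1.11e-05. Its other 2 probe sets gave 2.15 and 1.69.

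Slc2a3 (GLUT3), a high-affinity glucose transporter of neurons and blood cells, moved the other way. Its signal ran from 9.83 to 13.19 in callus with a median of 10.68. In uninjured bone it was 13.66 in sham mBCSP, 14.40 and 14.54 in sham mSSC, 14.40 in OVX mBCSP and 14.57 in OVX mSSC. The groups did not overlap, and the highest callus array was the mSSC array of conflicting surgery. Slc2a3 fell by 2.81 ± 0.37 on the log2 scale, 7.02-fold lower in callus (adjusted p 1.87e-05), and its 4 probe sets gave between -3.07 and -2.16.

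Among the glycolytic enzymes, Aldoc, an aldolase isoform that splits fructose 1,6-bisphosphate, changed most. It ran from 6.67 to 11.82 in callus with a median of 9.89, and was 7.47, 6.46, 6.71, 6.74 and 6.96 in uninjured bone. Only the mBCSP callus array of unstated surgery, at 6.67, fell within the uninjured range. Aldoc rose by 3.39 ± 0.59 (10.5-fold, adjusted p 0.00023). The more abundant isoform Aldoa rose by 0.55 ± 0.17 (adjusted p 0.0145), and a further probe set of Aldoa gave 0.10 (adjusted p 0.734). Tpi1, which interconverts the triose phosphates, had 13.00 to 13.98 in callus and 12.51, 11.84, 12.21, 11.58 and 11.52 in uninjured bone. It rose by 1.5 ± 0.19 (2.83-fold, adjusted p 1.24e-05), with 1.52 and 1.80 at its other probe sets. Tpi1 and Eno2 were the genes of the set that rose with no match to the HIF motif letters in their promoters.

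The 3 phosphofructokinase subunits, which carry the committed step, all rose. Pfkl rose by 1.64 ± 0.34, Pfkm by 1.13 ± 0.31 and Pfkp by 1.23 ± 0.24, with adjusted p of 0.00097, 0.00769 and 0.00055. Probe sets disagreed for Pfkl, where another gave -0.45 (adjusted p 0.156), and for Pfkp, where others gave 0.43 and -0.03. Pgk1, the first ATP-yielding enzyme of the pathway, rose by 0.39 ± 0.15, close to the threshold at an adjusted p of 0.0489. Pgam1, the phosphoglycerate mutase, rose by 0.53 ± 0.14 (adjusted p 0.00615) and Eno2, an enolase, by 0.84 ± 0.32 (adjusted p 0.0441). With each of the 17 arrays left out in turn, Pgk1 lost its call in 15 fits (adjusted p up to 0.141) and Eno2 in 12 (up to 0.169), while Aldoa lost it without either OVX uninjured array (up to 0.0663). Pkm, pyruvate kinase, had a difference of 0.60 ± 0.24 that missed the threshold (adjusted p 0.0568), but was called higher in 9 of 20 other settings, among them title style as a random block. Hk1 and Hk2, the hexokinases that trap glucose in the cell, gave -0.27 and 0.00 (adjusted p 0.527 and 0.998), with 95% intervals of -0.93 to 0.39 and -0.65 to 0.65.

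Of the lactate genes, Ldha, the lactate dehydrogenase subunit that favours lactate formation, had signals from 13.94 to 14.51 in callus. In uninjured bone it was 13.67, 13.55, 13.25, 13.21 and 12.96, below every callus array. Ldha rose by 0.89 ± 0.14 (adjusted p 8.28e-05) and Ldhb, the other subunit, by 1.11 ± 0.34 (adjusted p 0.0149), a call that was lost without the OVX uninjured mBCSP array (adjusted p 0.0585). The lactate transporters Slc16a1 (MCT1) and Slc16a3 (MCT4) gave -0.17 and 0.35 (adjusted p 0.835 and 0.297).

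Pfkfb4, a bifunctional enzyme that sets fructose 2,6-bisphosphate, was low in callus, at 8.37 to 10.21, and was 10.89, 11.67, 11.02, 10.58 and 10.89 in uninjured bone. The groups did not overlap, and the mSSC and mBCSP callus arrays of unstated surgery were the highest of the callus, at 10.21 and 10.08. Pfkfb4 fell by 1.42 ± 0.26 on the log2 scale, 2.67-fold lower (adjusted p 0.000349). Its relative Pfkfb3 gave 0.26 (adjusted p 0.611), while Pdk1, the kinase that holds pyruvate back from the mitochondria, rose by 1.14 ± 0.31 (adjusted p 0.00643).

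Hif1a, the oxygen-regulated subunit of HIF-1, ranged from 13.56 to 14.03 in callus. In uninjured bone it was 12.07 in sham mBCSP, 12.69 and 12.53 in sham mSSC, and 13.46 in both OVX arrays. The OVX arrays of uninjured bone thus lay close to the lowest callus array, though no array overlapped. Hif1a transcript rose by 0.96 ± 0.16 (adjusted p 0.000203), and its other 3 probe sets gave 1.21 to 1.30. Egln1 (PHD2), the main prolyl hydroxylase that marks HIF-α, rose by 1.33 ± 0.19 (adjusted p 3.6e-05). Egln3 (PHD3), an inducible relative, gave -0.74 ± 0.29 (adjusted p 0.0532), and Epas1 (HIF-2α) gave 0.63 ± 0.44 (adjusted p 0.274).

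Adm, which encodes the vasoactive peptide adrenomedullin, differed most of the set. Callus signals ran from 10.23 to 13.22 with a median of 11.48. Uninjured bone gave 6.65 in sham mBCSP, 8.51 and 7.65 in sham mSSC, 9.84 in OVX mBCSP and 8.95 in OVX mSSC. The 2 OVX arrays were the highest of the uninjured arrays but lay below every callus array. Adm rose by 3.80 ± 0.27 (13.9-fold, adjusted p 5.57e-08), and its other probe set gave 3.16. Bnip3, a mitophagy receptor, ran from 12.26 to 14.33 in callus and was 10.92, 11.39, 10.89, 12.59 and 12.58 in uninjured bone. The mBCSP callus array of unstated surgery fell below the 2 OVX uninjured arrays, and Bnip3 rose by 1.99 ± 0.22 (adjusted p 3.16e-06). Car9, carbonic anhydrase IX, ran from 6.96 to 11.40 in callus and was 8.0, 6.54, 7.32, 5.95 and 6.73 in uninjured bone, where 5.95 is the floor set on all signals. Car9 rose by 2.86 ± 0.59 (adjusted p 0.00103) and Ankrd37, an ankyrin repeat gene, by 1.08 ± 0.24 (adjusted p 0.00155), while Ndrg1 gave -0.09 (adjusted p 0.789).

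**Figure D2:**
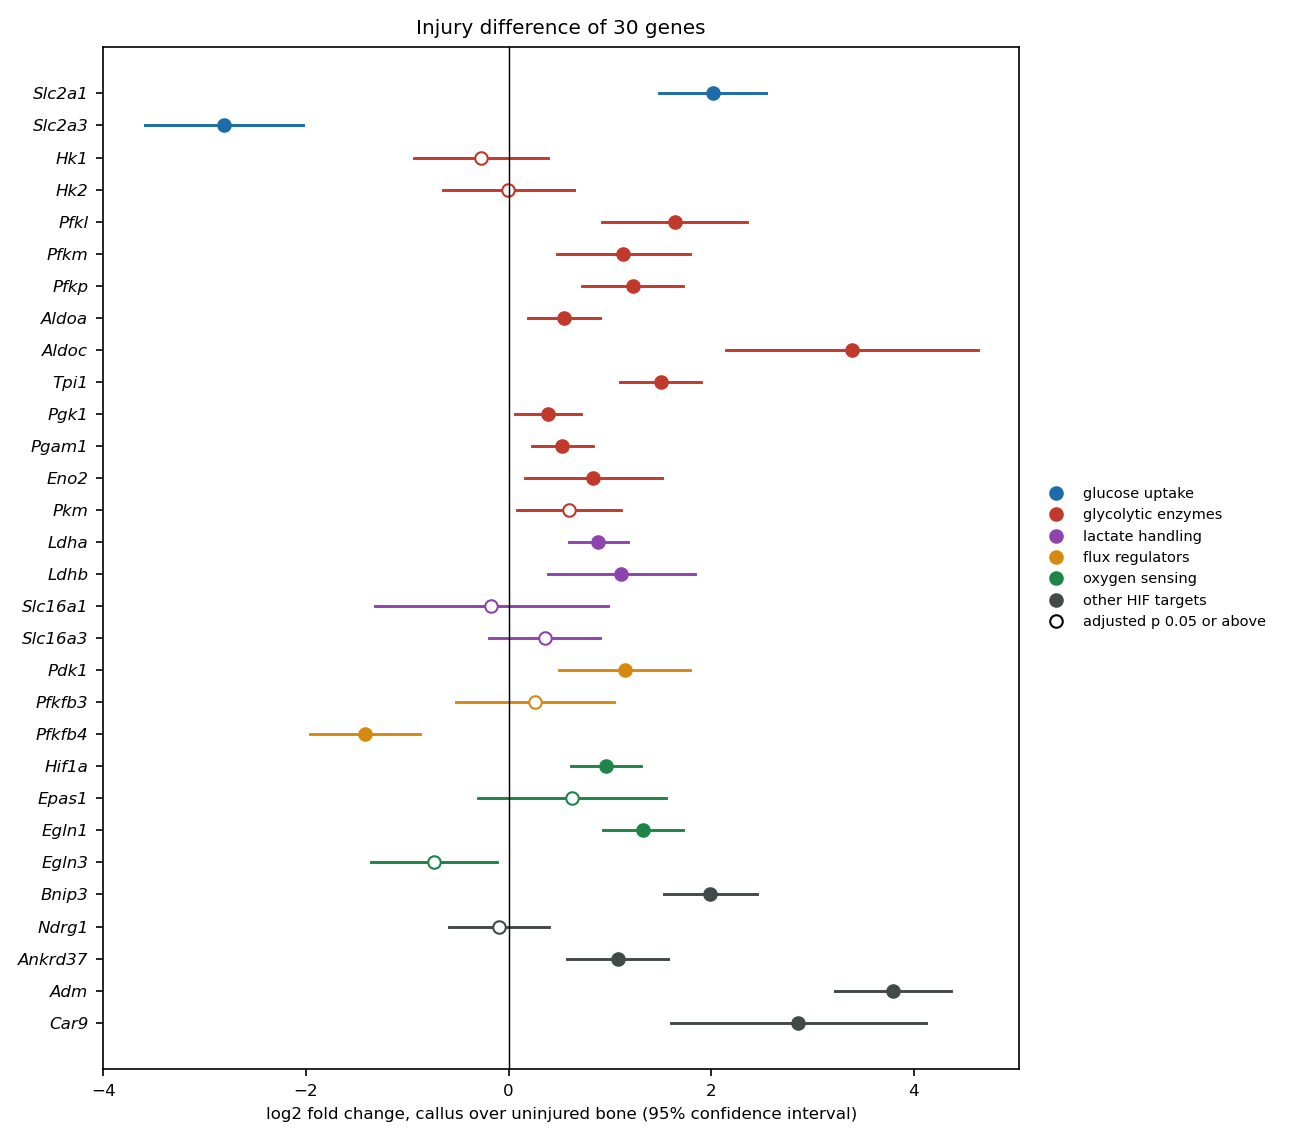
Log2 fold change of each of 30 genes between callus and uninjured bone in the fit with title style as a term, which sets 6 callus against 5 uninjured arrays of like title style, with the 95% confidence interval of the limma fit as a line and open symbols where the adjusted p was 0.05 or above. Adm at 3.80 and Aldoc at 3.39 lie farthest to the right and Slc2a3 at -2.81 farthest to the left.

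Other genes of the pathways were read from further lists, also chosen with earlier results of these data known, so their counts are a description. Of 32 further hypoxia response genes, 17 rose and 5 fell, with a median of 1.15, beside 22.6% and 19.8% of all genes. Those that rose were led by Car12, another carbonic anhydrase (4.56), by Plod1 (3.54), P4ha2 (3.53), Lox (2.99), Plod2 (2.96) and P4ha1 (2.93), which hydroxylate or cross-link collagen, and by Tmem45a (3.38). Also higher were Ak4 (2.69), Fam162a (2.51), Angptl4 (2.50), Stc2 (2.43), Rora (2.29), Higd1a (1.96), Ppp1r3c (1.86), Ddit4 (1.47), Vegfa (1.31), the vascular growth factor, and Bhlhe40 (1.0). Lower were Cited2 (-1.15), which competes with HIF for a coactivator, Ero1a (-1.02), Mxi1 (-0.76), Anln (-0.71) and Kdm3a (-0.50). Of 24 further glycolysis and glucose genes, 5 rose and 7 fell, with a median of -0.43, and the share that rose was near the 22.6% of all genes. Fbp1 (1.57), Pgm1 (1.37), Pdk4 (1.12), Pdk2 (1.03) and Fbp2 (0.44) rose. Those that fell were Hk3 (-2.08), a hexokinase of blood cells, Pygl (-1.48), which releases glucose from glycogen, Ldhc (-1.38), Adpgk (-1.17), Slc16a7 (-1.0), Pgd (-0.82) and Pgm2 (-0.66).

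Markers of other cells moved with injury too. All 15 chondrocyte genes rose, with a median of 3.07 and a summed signal of 16.90 to 18.46 in callus against 12.85 to 16.64, and all 6 osteoblast genes rose, with a median of 2.48. All 11 cell cycle genes fell (median -1.22). Of blood cell genes, 4 of 10 neutrophil, 7 of 15 macrophage, 2 of 5 B cell, 1 of 6 platelet and 0 of 7 erythroid genes were called lower, beside 19.8% of all genes. Called or not, all of these lay below 0 except 1 macrophage gene. Medians were -1.21 for neutrophil, -1.17 for macrophage, -1.50 for B cell, -0.73 for platelet and -1.41 for erythroid genes. The summed neutrophil signal was 13.37 to 17.36 in callus and 17.32 to 17.96 in uninjured bone. Ptprc (CD45), the pan-leukocyte marker that the sort excludes, had 13.81 to 14.74 on uninjured arrays and 6.58 to 13.54 in callus, and fell by 2.89 on the log2 scale (adjusted p 0.00397). None of 11 endothelial genes was called, and 6 of 11 skeletal stem and stromal genes rose. The callus array with the highest Ptprc, the mSSC array of conflicting surgery, also had the highest Slc2a3 (13.19). The part of blood cell RNA in the members' values was not tested. With Ptprc as a covariate 8 genes rose (Adm, Aldoc, Bnip3, Egln1, Hif1a, Ldha, Slc2a1 and Tpi1) and Slc2a3 fell. With the mean of the neutrophil and macrophage genes 11 rose and 2 fell. The neutrophil mean was 9.38 to 13.60 in callus and 13.62 to 14.41 in uninjured bone, with no overlap. The macrophage mean was 7.55 to 9.40 and 9.29 to 10.67, so this covariate too is mixed with injury. The share of all genes called is not given for these 2 fits, so their counts are not read as particular to the members. With the mean of the chondrocyte genes none of the 30 genes was called by limma, nor more than 2 genes of all tested. That mean was 11.53 to 14.19 in callus and 8.55 to 11.53 in uninjured bone. Neither Ptprc nor this mean overlapped between callus and uninjured arrays, so each of them and injury cannot be told apart, and these fits do not sort the genes by cell type.

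**Figure D3:**
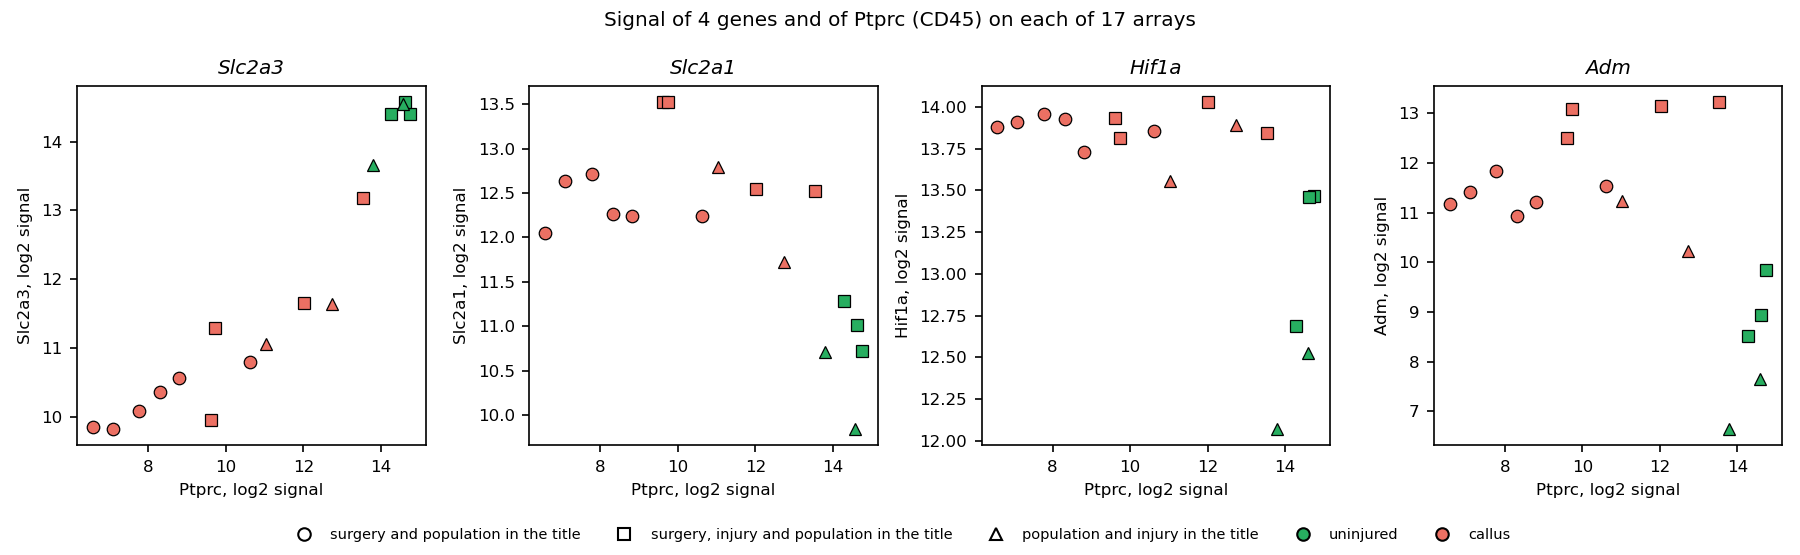
Log2 signal of Slc2a3, Slc2a1, Hif1a and Adm (vertical axes) against that of Ptprc (horizontal axes) on each of 17 arrays, coloured by injury and shaped by the contents of the array title. Uninjured arrays sit at the highest Ptprc, 13.81 to 14.74, with Slc2a3 at 13.66 to 14.57.

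The injury difference was also compared between the title styles in a test chosen after the data were seen. These styles also differ in the surgery of their callus and uninjured arrays, so style and surgery cannot be told apart in this test. Of all genes, 4.36% differed, and so did 6 of the 30, each with a smaller or lower difference among arrays titled by population and injury than among those titled by surgery, injury and population. Pairs of arrays matched for population and style gave Car9 means of 0.69 and 4.04 in these sets, and the test put the difference at -3.45 ± 0.91 (adjusted p 0.0432). Pfkl differed by -2.02 ± 0.50 (0.37 against 2.40), Egln3 by -1.71 ± 0.44 (-1.81 against -0.10) and Pkm by -1.39 ± 0.37 (-0.27 against 1.1). Aldoa differed by -0.97 ± 0.25 (-0.07 against 0.90) and Pgk1 by -0.92 ± 0.22 (-0.19 against 0.71). Members that missed the threshold had large values too, such as Aldoc at -3.26 ± 0.93 (1.34 against 4.58, adjusted p 0.0604), Slc16a1 at 2.50 ± 0.96, Pfkfb3 at -1.88 ± 0.62, Ldhb at -1.75 ± 0.57 and Hk2 at -1.62 ± 0.50. In all, 15 of the 30 had an unadjusted p below 0.05. Values closer to 0, with errors that leave room for either sign, were those of Slc2a1 (-0.06 ± 0.53), Slc2a3 (0.10 ± 0.78), Bnip3 (-0.08 ± 0.46) and Adm (-0.35 ± 0.57). Within the 4 arrays titled by population and injury alone, Adm and Bnip3 rose and Slc2a3 fell, and no other member passed the threshold. The share of all genes called is not given for that fit, so its calls are not read as particular to the members. These arrays are 2 of callus and 2 of uninjured bone, so a missing call does not show that a gene was unchanged. The callus arrays of that set had S100a8, a neutrophil gene, at 14.37 and 14.57, near the uninjured 14.27 to 14.73, while sham callus had 10.50 to 11.80. In the other style it was 13.36 and 14.32 in callus of conflicting surgery. The part of this in the difference was not tested.

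**Figure D4:**
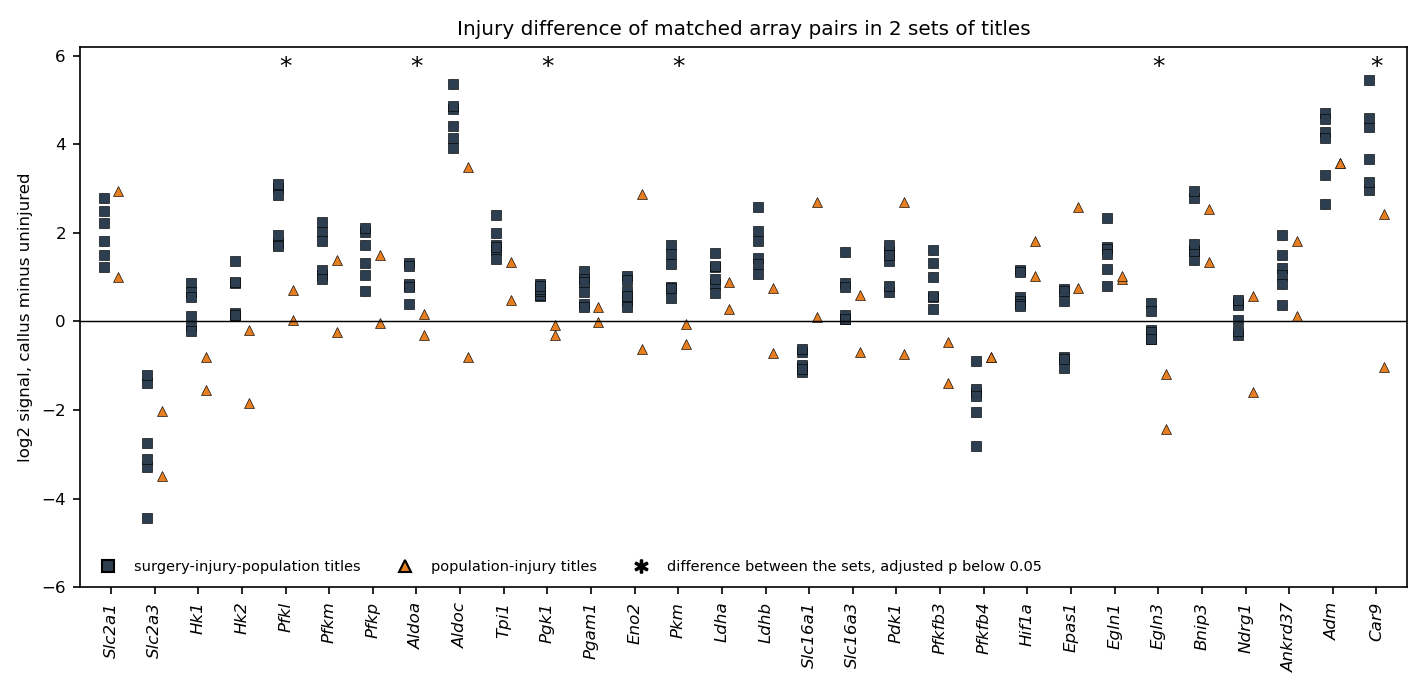
Injury difference in log2 signal for callus minus uninjured array pairs of the same population, from arrays titled by surgery, injury and population (squares, 6 pairs that share arrays) and by population and injury (triangles, 2 pairs), for 30 genes; asterisks mark adjusted p below 0.05. Squares lie at 2.96 to 5.44 for Car9 and triangles at -1.04 and 2.42, while Slc2a1 and Bnip3 overlap.

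The 2 cell populations were compared next. Between mSSC and mBCSP no gene of the 14504 passed limma's adjusted p of 0.05 (0%), and 9.66% had an unadjusted p below 0.05. At that unadjusted level Slc2a3, Ldhb, Pgk1 and Bnip3 were higher in mSSC, by 0.54, 0.44, 0.22 and 0.30 on the log2 scale, and Epas1 was lower, by -0.96 ± 0.30 (unadjusted p 0.00898, adjusted p 0.403). In the 8 pairs of arrays alike in surgery and injury, Slc2a3, Pgk1 and Ldhb were higher in mSSC in 7 of 8 and Bnip3 in 5 of 8, and Epas1 was lower in 6 of 8. Endothelial genes ran with Epas1, since 10 of 11 were lower in mSSC at an unadjusted p below 0.05, with a median of -1.93. The array with the highest Pecam1, the mBCSP callus of conflicting surgery (13.62), also had the highest Epas1 (13.92). The part of endothelial RNA in the Epas1 values was not tested. The study's methods name a t-test for 2 groups and analysis of variance for more, and tie neither to the arrays. Here the methods' t-test took the 9 mSSC and 8 mBCSP arrays without their pairs, with callus and uninjured bone together. It called no member at p 0.05, which 397 of the 14504 genes reached. Nor did the injury difference of any member depend on the population by limma, where no gene passed (0%) and 4.31% had an unadjusted p below 0.05. The largest was Pdk1, whose injury difference was 1.62 ± 0.38 greater in mSSC (unadjusted p 0.000699, adjusted p 0.804), with Bnip3 at 0.77 (unadjusted p 0.0426).

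The study's main question was how ovariectomy and estradiol change callus stem and progenitor cells. OVX callus had 2 arrays and so did OVX + E2, each 1 mBCSP and 1 mSSC, and the comparisons below share arrays. Between OVX and sham callus, limma called no gene (0%), and 2.01% of genes had an unadjusted p below 0.05. Of the 30 genes, 25 lay below 0, as did 7693 of the 14504 genes, with a median of -0.20 (-0.02 over all genes). In the arrays of the same title style 22 were lower in OVX in both populations, a count given without a share of all genes. The labels do not say whether both populations came from the same mice, so that count is not read as replication. Ldhb gave -0.86 ± 0.35 (unadjusted p 0.0306) and Pfkl -0.52 ± 0.22 (unadjusted p 0.0401), and after adjustment neither passed (adjusted p 1). Ldhb signals were 10.25 and 10.75 in OVX and 11.18 and 11.55 in the sham arrays of the same title style. Slc2a1 gave -0.52, with a 95% interval of -1.25 to 0.22, and Adm -0.58, from -1.48 to 0.31, so that each interval spans 0 and a fall of 1 log2 unit. Without the title style as a term the median was -0.51 and 28 genes lay below 0, with all 4 sham callus arrays on the other side. The methods' t-test gave 3 lower members at p 0.05, which 618 of the 14504 genes reached in either direction, and none after adjustment. It set the 2 OVX arrays against all 4 sham callus arrays, so title style and surgery are mixed in it.

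OVX + E2 against OVX callus gave no call among the 30 genes, where 0.0207% of all genes were called, and no member had an unadjusted p below 0.05, which 2.29% of all genes had. The methods' t-test called none either. Of the 30 genes, 17 were higher in both populations, a count given without a share of all genes and not read as replication. Above 0 lay 21 of the 30 (median 0.08), as did 7780 of the 14504 genes. The largest were Pfkfb4 at 0.64 (95% interval -0.05 to 1.32) and Ldhb at 0.64 (-0.13 to 1.4). In these same arrays all 10 neutrophil genes lay above 0, 7 of them at an unadjusted p below 0.05 (median 1.67), as did 13 of 15 macrophage genes (median 1.42). Their part in the members' values was not tested. OVX + E2 against sham callus gave no call among the members (0.0207% of all genes) and a median of -0.16. Below 0 lay 24 of the 30, as did 7410 of the 14504 genes. No member had an unadjusted p below 0.05, which 2.48% of all genes had. Its largest values were Slc2a3 at 0.72 and Car9 at -0.87, with unadjusted p of 0.111 and 0.199.

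**Figure D5:**
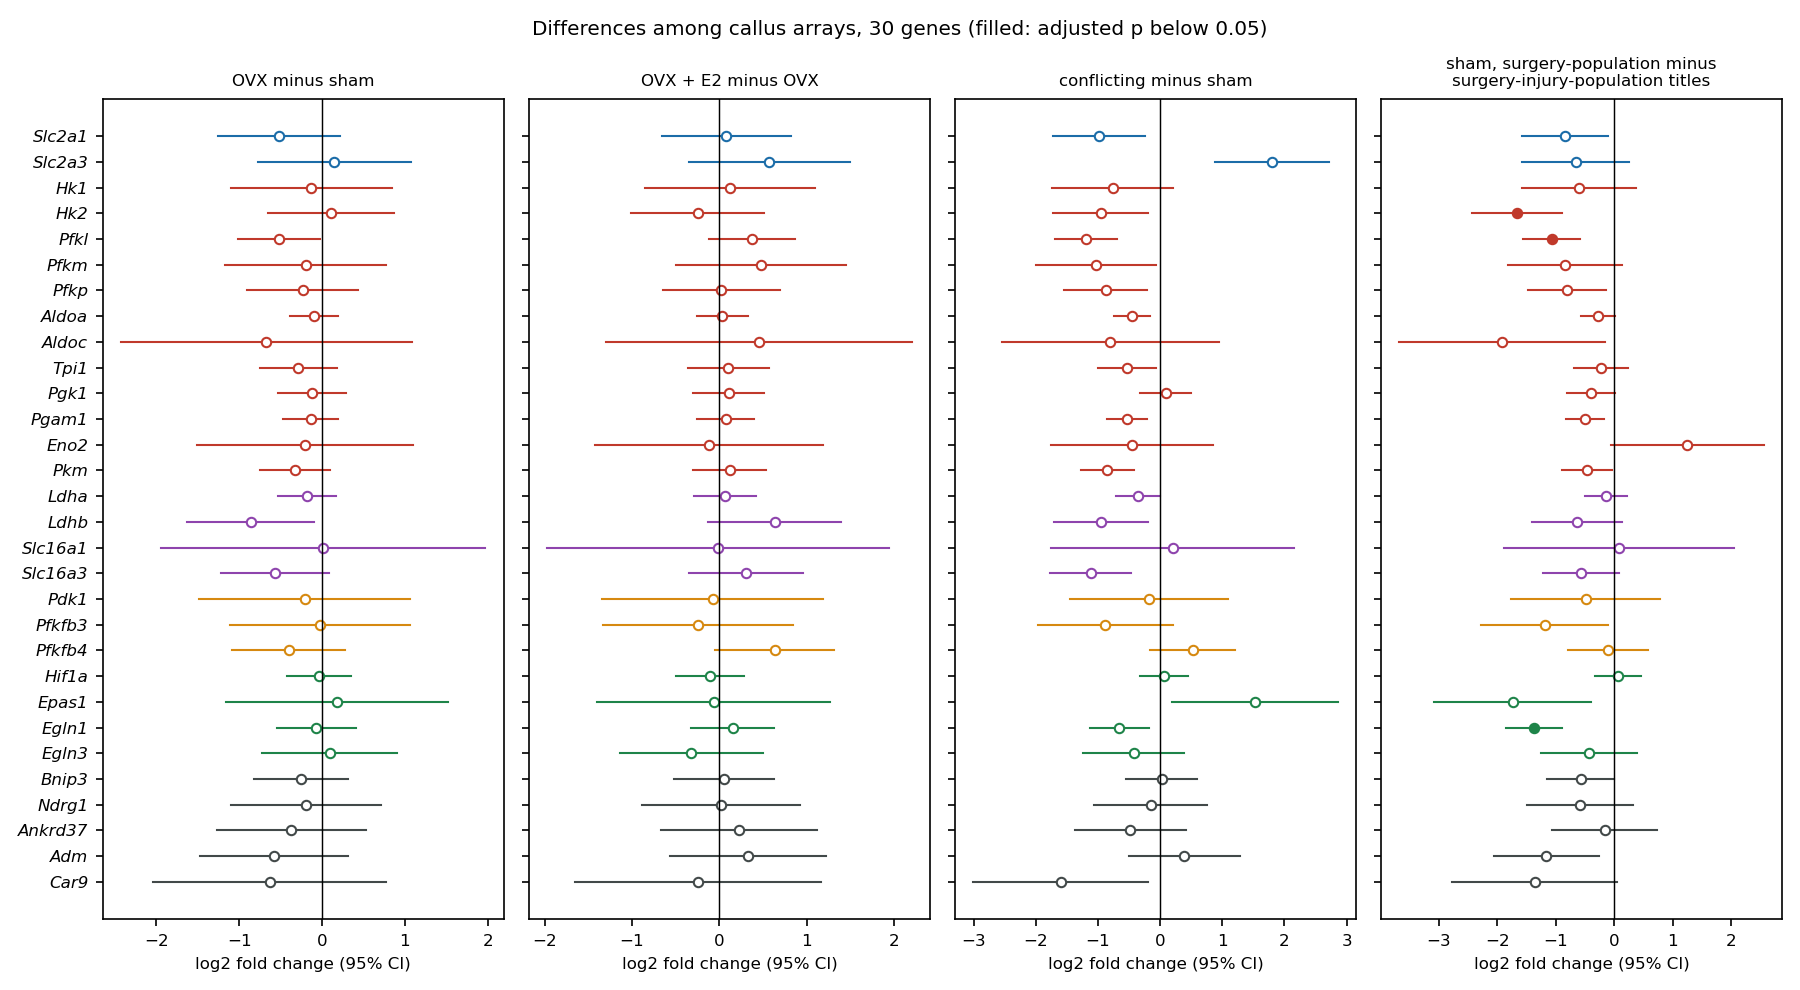
Log2 fold changes of 30 genes in comparisons among callus groups, with genes in rows, 95% confidence intervals as lines and a panel for each comparison: OVX against sham, OVX + E2 against OVX, the arrays of conflicting surgery against sham, and sham arrays titled by surgery and population against sham arrays titled by surgery, injury and population. The first panel has 25 of 30 genes below 0 and no filled symbol, and the last has filled symbols for Hk2, Pfkl and Egln1.

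In uninjured bone OVX was compared with sham by arrays titled by surgery, injury and population, which hold 1 sham array, so the sham level rests on a single mSSC array there. No member was called by limma, where 0.145% of all genes were. At an unadjusted p below 0.05, which 7.76% of all genes reached, 3 were higher, Bnip3 by 1.34 ± 0.32 (p 0.00157, adjusted p 0.197), Hif1a by 0.78 (p 0.00479) and Egln1 by 0.63 (p 0.0394), and 2 lower, Aldoa by -0.46 and Ldha by -0.47. Bnip3 was 12.59 and 12.58 in OVX and 11.39 in that sham array, with the sham arrays of the other title style at 10.92 and 10.89. Of further hypoxia genes Lox, which cross-links collagen, was called at 2.79 (adjusted p 0.00628), and of chondrocyte genes Col9a1 at 2.21 (adjusted p 0.00465). Platelet genes were lower in OVX, with a median of -2.27 over 6 genes, Treml1 called and 4 at an unadjusted p below 0.05. Their mean signal was 10.90 in that single sham array and 8.91 and 8.96 in the OVX arrays, and their part in the members' values was not tested.

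The 2 callus arrays of conflicting surgery were set against sham callus, where 0.29% of all genes and no member were called. With the 2 arrays of unstated surgery left out of the fit, 10 members were called lower. The 0.29% is of the fit with all arrays. No share of all genes is given for the smaller fit, so its 10 calls are not read as particular to the members. In the fit with all arrays, 14 members were lower and 2 higher at an unadjusted p below 0.05, when 15.6% of all genes were. The median was -0.51 over members and -0.11 over all genes. Pfkl gave -1.19 ± 0.22 (adjusted p 0.053), Pkm -0.85 ± 0.19 (adjusted p 0.0786) and Slc16a3 -1.12 (adjusted p 0.114). Slc2a3 was higher by 1.80 ± 0.42 (adjusted p 0.0842). Adm was 13.15 and 13.22 in these arrays, the highest of all callus, and gave 0.39. These arrays had Ptprc at 12.01 and 13.54 against 7.09 to 9.73 in sham callus, all 10 neutrophil genes above 0 with Mmp8 called, and Lyz2 and Fcer1g, macrophage genes, called. Their part in the members' values was not tested, and what surgery the animals had is not settled by the labels.

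Sham callus arrays also differed with the title style. Between those titled by surgery and population and those by surgery, injury and population, 2.91% of all genes were called, and 1.19% were lower. Of the 30 genes, 3 were called lower: Hk2 by -1.66 ± 0.35 (adjusted p 0.0289), Pfkl by -1.07 ± 0.22 (adjusted p 0.0294) and Egln1 by -1.37 ± 0.22 (adjusted p 0.00922). Hk2 was 9.59 and 9.73 in the first and 11.41 and 11.23 in the second, with no overlap, and Egln1 was 12.17 and 11.88 against 13.29 and 13.49. In all, 27 of the 30 lay below 0 (median -0.58), as did 6853 of the 14504 genes. Of the 27, 12 had an unadjusted p below 0.05, against 15.3% of all genes in either direction. The calls were fragile: with 1 of the 17 arrays left out, Hk2 and Pfkl each lost theirs in 10 fits and Egln1 in 3. Chondrocyte genes moved with them, with 3 of 15 called lower (Col11a2, Ihh and Snorc) and a median of -0.85. Skeletal stem and stromal genes went the other way, with 4 of 11 called higher (Cxcl12, Pdgfra, Pdgfrb and Pdpn) and a median of 1.14, and of 10 neutrophil genes Mmp8 was called lower. Both sets carry the same surgery and injury labels. Whether the title style marks a batch was not tested.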

How the data were processed

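The deposited table held log2 signals of 45101 Affymetrix probe sets on 17 arrays, and no other column of sample values. The authors' processing notes name MAS5, while the study's methods describe 2 rounds of RNA amplification and dChip, so which software made the deposited log2 values is not settled. Here 64 control probe sets were dropped, arrays were quantile normalised on the linear scale, signals were floored at the 20th percentile (log2 5.95) and log2 was taken again. Of the probe sets, 34945 named 1 gene symbol, 932 several and 9160 none. A gene was read from its single-symbol probe set of highest mean (18193 genes), and 14504 genes reached the 40th percentile (log2 7.20) on at least 2 arrays. Fold changes came from limma 3.58.1 in R 4.3.3 (eBayes with trend), with title style and population as terms, and Benjamini-Hochberg adjustment over the 14504 genes at 0.05. The number of arrays limits the precision. All members of the set were named, and of further lists the called genes. The members and lists were chosen with earlier results of these data known. Alternatives covered normalisation, floor, filter, probe set choice, title style, blocks, covariates, the methods' t-test and leaving out arrays. Promoters came from RefSeq (GRCm38.p6), whose table names 34741 of the single-symbol probe sets.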

Additional observations from a re-analysis of the deposited data

Results flagged for a closer look

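In the sets of 4 sham callus and of 5 uninjured arrays, the most extreme array was compared with the rest by Dixon's gap test at the 95% level for each of the 30 genes. Of 60 such sets 6 were flagged, when chance flags about 1 in 20 sets of like arrays. The arrays here differ in population and title style, and the uninjured ones also in surgery, so the 6 are not read as an excess. Tpi1 was flagged in sham callus for a high value of 13.985, in mBCSP of the arrays titled by surgery, injury and population, where the nearest array had 13.534. In uninjured bone, Slc2a3 (13.657) and Ndrg1 (11.093) were low in the sham mBCSP array. Hk1 (10.375, nearest 11.184), Pfkm (7.5762, nearest 9.1731) and Slc16a1 (8.5538, nearest 12.082) were low in the sham mSSC array titled by population and injury.

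The injury difference of 6 genes differed between the title styles, population and injury minus surgery, injury and population, by limma's interaction test with an adjusted p below 0.05. The values were -2.021 for Pfkl (adjusted p 0.0316), -0.9749 for Aldoa (0.0366), -0.9222 for Pgk1 (0.0273), -1.39 for Pkm (0.0457), -1.711 for Egln3 (0.0414) and -3.45 for Car9 (0.0432). At an unadjusted p below 0.05 there were 15 of the 30 genes, and 2946 of the 14504. The causes were not tested.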

How the results depend on the processing

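For callus against uninjured bone, 19 members rose and 2 fell. The counts moved with arrays titled by population and injury alone (2 higher, 1 lower) and with the neutrophil and macrophage mean as a covariate (11 higher). They also moved with Ptprc as a covariate (8 higher, 1 lower) and with the chondrocyte mean as a covariate (0 and 0), these last 2 added after seeing the data. In the first of these Aldoa gave -0.0674 and Pgk1 -0.19, and with the chondrocyte mean Pdk1 gave -0.58. Fewer arrays were in the first. The causes of the others were not tested. Leaving out 1 array at a time gave 15 to 20 higher and 2 to 3 lower. Without the arrays of unstated or conflicting surgery, a setting added after seeing the data, 24 rose and 2 fell, with Hk1, Hk2, Pfkfb3, Pkm and Slc16a3 newly called. That estimate rests on 2 sham callus arrays titled by surgery, injury and population against 3 uninjured arrays, 2 of them OVX. In it Hk1, Hk2, Epas1, Egln3 and Ndrg1 changed sign. Without the arrays of unstated surgery alone 20 rose and 2 fell, and with the titles of surgery, injury and population alone 19 rose and 3 fell. The methods' t-test gave 18 higher and 2 lower after adjustment. Terms for surgery, as read from the titles, kept 20 of the 21 calls, where Eno2 lost its call and Pkm was newly called. Sham callus against sham uninjured bone kept 18 of the 21, where Eno2, Pfkm and Pdk1 lost their calls and Pkm was newly called. The share of all genes called is not given for these other settings, so their counts are not read as particular to the members. Between OVX and sham uninjured bone, 2 members were called higher with no title style term, 2 with it as a random block, 1 without the arrays of unstated surgery and 0 to 1 with an array left out. One such fit, without the sham mSSC array of that title style, could not be made. For the arrays of conflicting surgery against sham callus, 1 member was called higher with no title style term, 1 with it as a random block and 1 without the arrays of unstated surgery, and 0 to 1 with an array left out. There 1 member was called lower with no filter, 1 with a stricter filter, 10 without the arrays of unstated surgery and 0 to 10 with an array left out. Without either array of unstated surgery the count was 10, and without either sham uninjured array titled by population and injury it was 1. The single higher calls above also came without either array of unstated surgery. For sham callus between title styles, the 3 lower calls became 1 with the probe set of widest range, 6 without the arrays of unstated surgery, 0 by the methods' t-test and 0 to 6 with an array left out (0 without the sham mSSC array titled by surgery and population or either sham array of the other style, 1 without its mBCSP array or any OVX or OVX + E2 callus array, 6 without either array of unstated surgery). In the other comparisons no member was called when an array was left out. With mSSC and mBCSP arrays alike in surgery, injury and title style as a random block, 17 members rose and 2 fell with injury, and Eno2 and Pgk1 lost their calls.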
